A study of Rattus norvegicus with 30 samples.

Results

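Receptors for the monoamines and for acetylcholine are represented by 48 genes on the arrays of this series, out of 4736 genes that could be named. They were taken from the platform annotation as every gene with a matching symbol. The symbols begin with Htr (serotonin receptors), Adra or Adrb (adrenergic), Drd (dopamine), Chrm (muscarinic acetylcholine), Chrn (nicotinic acetylcholine) or Hrh (histamine). This rule reads symbols and not signals, but the receptor genes were chosen with earlier results of these data known. These genes are read by 68 probe sets, and 15 of the genes have more than 1. The probe set with the highest mean log2 signal stood for its gene. By family there were 13 serotonin, 8 adrenergic, 5 dopamine, 5 muscarinic, 15 nicotinic and 2 histamine receptor genes.

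Total RNA of rat hippocampus was hybridised to 30 Affymetrix arrays. Rats received kainate, an agonist of a class of glutamate receptors that causes seizures, or phosphate-buffered saline (PBS), and tissue was taken 1, 6, 24, 72 or 240 h later. Each of the 10 combinations of treatment and time has 3 arrays, and kainate is compared with PBS within each time. Strain, age, sex, dose and route are not given in the sources used here, nor is whether an array stands for 1 animal or a pool, so p-values measure the spread between arrays. The hippocampus is a mixture of neurons, glia and vessels, and in such bulk tissue fewer cells of a type and less RNA per cell cannot be told apart.

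Serotonin, noradrenaline, dopamine, histamine and acetylcholine reach the hippocampus mostly through long axons from the brainstem, hypothalamus and septum, while most of the receptors are made by hippocampal cells themselves. Most of these receptors act through G proteins: the Gq class raises phospholipase C activity and calcium, the Gi/o class lowers cyclic AMP and opens potassium channels, and the Gs class raises cyclic AMP. Nicotinic receptors and Htr3a are ion channels that the transmitter opens directly. All of these classes act on neuronal excitability.

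The results turn on 5 receptor genes, and the 250 bases before the transcription start of each are shown so that their promoters can be compared letter by letter. The sequences are from RefSeq on build GRCr8, read 5' to 3' on the gene's strand. They lie at chr13:35252587-35252836 (minus strand, Htr5b), chr3:139262332-139262581 (minus strand, Adra1d), chrX:115452940-115453189 (plus strand, Htr2c), chr1:126249130-126249379 (minus strand, Chrna7) and chr14:79697477-79697726 (minus strand, Adra2c). Capitals mark a GC box (GGGCGG, or CCGCCC where it lies on the other strand) or, in Adra1d, the right core of the RE1 element (GGACAG).
Htr5b: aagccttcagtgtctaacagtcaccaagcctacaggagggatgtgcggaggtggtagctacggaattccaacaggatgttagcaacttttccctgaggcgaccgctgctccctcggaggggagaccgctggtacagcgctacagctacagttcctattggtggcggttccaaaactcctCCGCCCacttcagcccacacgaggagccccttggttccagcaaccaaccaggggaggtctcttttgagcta
Adra1d: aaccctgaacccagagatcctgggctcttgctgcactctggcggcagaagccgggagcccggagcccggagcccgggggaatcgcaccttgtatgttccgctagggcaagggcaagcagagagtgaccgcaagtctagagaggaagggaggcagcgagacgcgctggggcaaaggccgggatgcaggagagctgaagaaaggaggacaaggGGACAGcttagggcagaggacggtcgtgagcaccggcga
Htr2c: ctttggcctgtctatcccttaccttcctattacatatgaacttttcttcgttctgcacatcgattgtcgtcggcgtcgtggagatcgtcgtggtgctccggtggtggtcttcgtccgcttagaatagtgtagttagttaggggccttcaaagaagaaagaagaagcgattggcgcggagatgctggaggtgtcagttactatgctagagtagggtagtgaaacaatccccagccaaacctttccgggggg
Chrna7: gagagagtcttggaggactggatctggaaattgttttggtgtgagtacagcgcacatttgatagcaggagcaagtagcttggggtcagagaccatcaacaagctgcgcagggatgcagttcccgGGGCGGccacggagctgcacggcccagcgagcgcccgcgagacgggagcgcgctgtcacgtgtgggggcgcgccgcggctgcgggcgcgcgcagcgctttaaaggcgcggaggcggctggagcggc
Adra2c: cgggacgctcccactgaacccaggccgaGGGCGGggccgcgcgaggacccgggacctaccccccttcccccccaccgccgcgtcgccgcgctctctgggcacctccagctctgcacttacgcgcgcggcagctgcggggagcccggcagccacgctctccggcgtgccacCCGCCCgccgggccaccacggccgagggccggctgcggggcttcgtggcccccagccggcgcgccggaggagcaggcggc

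In Htr5b the GC box lay 71 to 66 bases before the start, in Chrna7 126 to 121 bases before it, and Adra2c held one at 222 to 217 and another at 80 to 75. The RE1 core of Adra1d lay 39 to 34 bases before the start. The 8 motifs searched on both strands also included the cyclic AMP response element (TGACGTCA) and its shorter form TGACG, AP-1 (TGANTCA), EGR (GCGNGGGCG), the TATA box (TATAAA) and the left core of RE1 (CAGCACC). The short form lies within the full cyclic AMP element, so these overlap. Htr2c held none of them in this window. Of the 37 receptor genes with a promoter entry, 18 held a GC box (48.6%), against 30.5% of all 33469 promoters of the table. The GC content differed in the same direction, with a median of 62% in the 37 receptor promoters and 51.2% in all. The full cyclic AMP element was in 0 of 37 and in 1.59% of all promoters, and AP-1 was in 0 of 37 and in 6.34% of all. The EGR motif was in 2 of 37, Chrm3 and Htr7, and in 4.29% of all. The right core of RE1 was in 6 of 37 (16.2%) and in 18.2% of all, while the left core was in 5 of 37 (13.5%) and in 5.43% of all. The short form of the cyclic AMP element was in 7 of 37 (18.9%) and in 18.2% of all, and the TATA box was in Chrnb1 alone among the 37 and in 12.9% of all. A match describes letters and not a bound site.

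The deposited signal is a linear intensity, and its trimmed mean lay between 150.1 and 150.2 on every array. Here a value under 10.95, the 20th percentile of all values, was set to that floor, and a probe set was tested when it exceeded the filter level of 35.2, the 40th percentile, on at least 3 of 30 arrays, which 6303 probe sets did. The neuron marker genes had a summed signal over 14 genes between 15015 and 20393. Single genes of the list could be dim: Camk2a ranged from 9.62 to 111. Levels on the PBS arrays of 6 and 72 h differ for many genes from those of 1, 24 and 240 h, so each kainate effect is taken against PBS of the same time, and levels set side by side across times are a description. Choroid plexus signal varied from array to array: Ttr, made in bulk by choroid plexus, ranged from 104 to 5108. A call means an adjusted p under 0.05 (limma, Benjamini-Hochberg over all tested probe sets). Each value is a log2 difference, kainate minus PBS, of 3 arrays against 3. Its standard error comes from the limma variance of the probe set, shared by all 10 groups. It is therefore the same at every time and is not the spread of the 6 arrays compared.

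Most of these receptor genes gave dim signals in hippocampus. On the 15 PBS arrays 12 of 48 lay above the filter level throughout. They were Adra1d, Adra2a, Drd3, Drd5, Chrm3, Chrm4, Chrna7, Chrnb4, Chrng, Htr2c, Htr3a and Htr5b. By class, these were 3 of 10 Gq, 3 of 13 Gi/o and 1 of 8 Gs receptors, 4 of 16 channel subunits, and Htr5b, which was put in no class. No gene was at the floor on all 15. In all 39 of 48 could be tested. The 9 that could not were Adrb1, Drd2, Drd4, Hrh1, Htr1f, Chrna5, Chrna6, Chrna9 and Chrnb3. Of these Drd2, the D2 dopamine receptor that is abundant in striatum, had a PBS median of 8.90, under the floor, and exceeded the filter level on 1 of 30 arrays. Hrh1 and Htr1f exceeded it on 0 of 30.

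The tested genes ranged widely in how steadily they were read. Chrm3, a Gq-coupled muscarinic receptor, had a PBS range of 201 to 301 with a median of 264. Drd3, a Gi/o-coupled dopamine receptor, ranged from 195 to 412 (median 343) on its brighter probe set. The dimmer one had a median of 3.85 and exceeded the filter level on 1 of 30 arrays, so the 2 probe sets of Drd3 do not give 1 picture of the gene. Chrm1, the main Gq-coupled muscarinic receptor of forebrain neurons, ranged from 15.7 to 80.7 (median 54.2) and Htr1a, the Gi/o-coupled serotonin receptor, from 7.01 to 75.2 (median 47.1). Levels of different probe sets are not comparable as amounts of RNA.

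**Figure D1:**
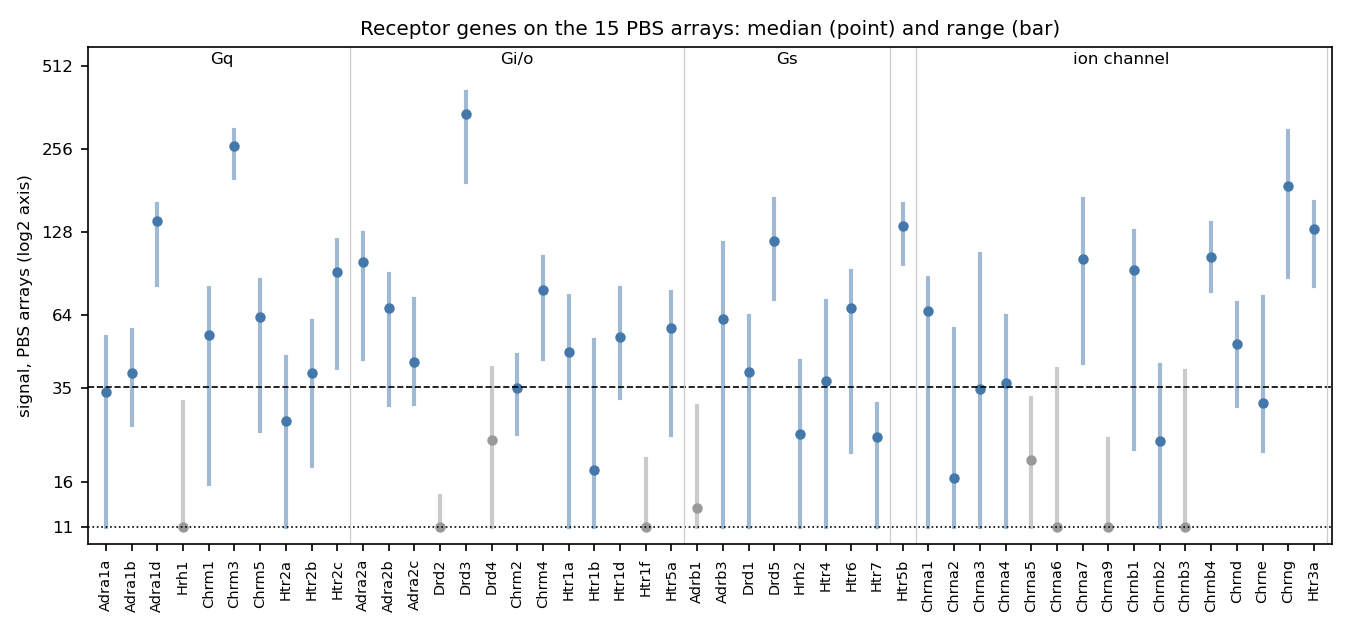
Signal of the 48 receptor genes on the 15 PBS arrays (log2 axis): the point is the median, the bar the range, values under the floor are drawn at it, and genes are ordered by coupling class. Blue genes were tested and grey ones were not. The dotted line is the floor (10.95) and the dashed line the filter level (35.2), and 12 genes have their whole bar above it.

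The 5 subunit genes of the muscle-type nicotinic receptor, which is best known from the neuromuscular junction, all passed the filter. Chrng, its fetal gamma subunit, was above the filter level on all 15 PBS arrays, from 88.5 to 299 with a median of 188. Chrna1 ranged from 6.02 to 87.3 with a median of 66.3. Of 11 skeletal muscle marker genes on the arrays 5 passed the filter. Ckm, muscle creatine kinase, ranged from 8.15 to 72.5 over all 30 arrays, and Acta1, skeletal actin, from 87.8 to 159. Whether the Chrng probe set reads Chrng RNA here was not tested.

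Few receptor genes changed with kainate. At 1 h 0 of 39 were called in either direction, against a background of 0.904% of all tested probe sets called higher and 0.190% lower. At 6 h 0 rose (background 3.24%) and 1 fell, Htr5b (background 0.698%). At 24 h 1 rose, Adra2c (background 5.03%), and 2 fell, Chrna7 and Htr2c (background 6.30%). At 72 h 0 were called, with a background of 0.0476% higher and 0% lower, and the same was true at 240 h (0.0476% and 0%). The 2 falls at 24 h are 5.13% of the 39 genes, near the background, and the 1 rise is 2.56%, under it. At an unadjusted p under 0.05 the limma counts were 2, 5, 7, 3 and 4 of 39 at 1, 6, 24, 72 and 240 h. Over all 6303 tested probe sets the same counts were 610, 928, 1662, 399 and 767. The standard error of a difference had a median of 0.33 over the 39 genes, with a range of 0.12 to 0.57.

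**Figure D2:**
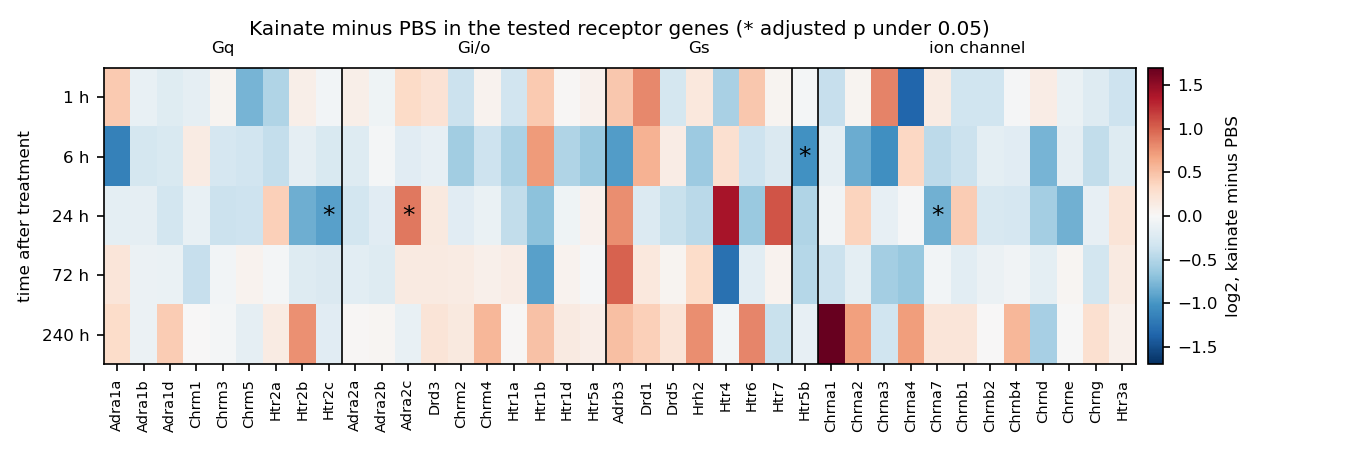
Log2 difference, kainate minus PBS, of the 39 tested receptor genes (columns, grouped by coupling class; Htr5b stands between the Gs and channel groups) at 5 times (rows). Red is higher and blue lower after kainate, and asterisks mark the 4 calls: Htr5b at 6 h, and Htr2c, Adra2c and Chrna7 at 24 h.

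Htr5b, a serotonin receptor that is intact in rodents and a pseudogene in humans, gave the clearest change. At 6 h its signal was 85.0, 72.1 and 69.6 on the kainate arrays and 149, 162 and 151 on the PBS arrays. All kainate arrays were far below all PBS arrays. The difference was -1.03 ± 0.20 (limma SE, 3 arrays against 3), a 2.04-fold fall (limma adjusted p = 0.000828). Mean signals were 75.6 ± 8.23 after kainate and 154 ± 6.91 after PBS (SD, n = 3). The call held in all 11 other settings that were run and in all 30 fits that left out 1 array, with a log2 difference between -1.12 and -0.97 in the latter.

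The differences of Htr5b at the other times were smaller. At 1 h the kainate arrays read 123, 100.3 and 132 and the PBS arrays 115, 120.3 and 124, and the groups overlapped (-0.03 ± 0.20). At 24 h they read 87.7, 79.6 and 63.99 against 98.6, 112 and 119, and at 72 h 104, 116 and 83.5 against 135, 142 and 146. In both cases every kainate array lay under every PBS array, but the differences of -0.52 and -0.49 were not called (limma adjusted p = 0.0858 and 0.642). At 240 h 1 kainate array, at 185, was above and the others, at 104 and 100.5, below the PBS arrays (149, 151 and 117). Averaged over the 5 times, the kainate effect on Htr5b was -0.44 ± 0.09 (limma adjusted p = 0.00164). It was the only receptor gene called for this mean effect, 1 of 39 lower against 1.44% of all probe sets and 0 higher against 2.97%. It was also the only one called by the F test for an effect at any time (adjusted p = 0.00251), against 9.33% of all probe sets.

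Whether the receptor effects differed between times was tested directly. By the F test 0 of 39 passed (background 6.62%), Htr5b included (limma adjusted p = 0.107). None passed for the difference between 6 and 1 h (1.09%), 24 and 6 h (5.24%), 72 and 24 h (0.746%) or 240 and 24 h (5.65%). The times at which a gene was called and was not called are therefore not shown to differ for these 39 probe sets.

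**Figure D3:**
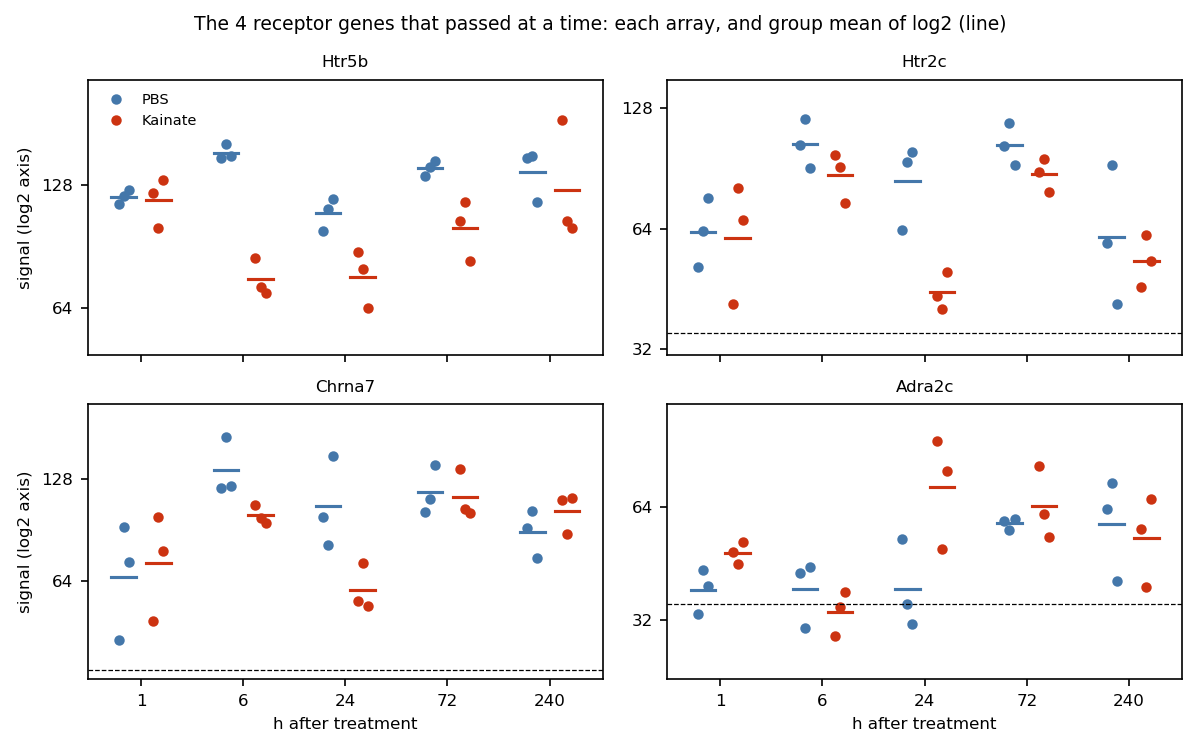
Signal of the 4 receptor genes called at a time, on every array (points; log2 axis), against hours after treatment; lines are group means of log2, and the dashed line is the filter level (35.2). For Htr5b at 6 h and for Htr2c and Chrna7 at 24 h all 3 kainate points lie under all 3 PBS points, while for Adra2c at 24 h the groups overlap.

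Among the Gq-coupled receptors, Htr2c fell at 24 h. Htr2c is a serotonin receptor that is expressed by hippocampal neurons and very strongly by choroid plexus epithelium. Its kainate arrays read 43.3, 40.3 and 49.9 and its PBS arrays 63.5, 93.8 and 99.5, with no overlap. The difference was -0.92 ± 0.26, a 1.89-fold fall (limma adjusted p = 0.0226). Its other probe set, U35315_at, also fell: it read 15.4, 30.2 and 25.9 after kainate and 37.4, 66.1 and 60.3 after PBS, a difference of -1.21 ± 0.40 (limma adjusted p = 0.0474). These 2 probe sets thus moved together at 24 h, and both share the same 6 RNA samples. The 24 h call of U35315_at held in 5 of 10 other settings and in 13 of 30 fits without 1 array.

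Choroid plexus signal was not lower after kainate at 24 h. Ttr read 2301, 5108 and 3606 on the kainate arrays and 792, 3126 and 2442 on the PBS arrays, and the summed signal of 8 choroid plexus markers was 3352 to 6509 after kainate and 1513 to 4104 after PBS. Of 6 tested markers 1 rose, Igfbp2, and 0 fell. The part of this in the Htr2c result was not tested. At the other times Htr2c was not called: the differences at 1, 6, 72 and 240 h were -0.05, -0.26, -0.24 and -0.19. U35315_at gave -0.09, -0.05 and 0.000478 at 1, 6 and 72 h. At 240 h it gave -1.11 ± 0.40 (limma adjusted p = 0.286), close in size to its 24 h value and unlike the other probe set. Its 240 h arrays read 11.2, 35.2 and 6.02 after kainate and 47.6, 49.7 and 18.5 after PBS, without full separation and partly under the floor.

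Among the other 8 tested Gq receptors 0 were called at any time with the probe set that stands for the gene. Chrm3 came closest: at 24 h its kainate arrays read 198, 187 and 197 and its PBS arrays 237, 255 and 259. The groups did not overlap, and the difference of -0.37 ± 0.12 missed the threshold (limma adjusted p = 0.0505). The other Chrm3 probe set gave 0.02 ± 0.32 at 24 h. At 6 h Chrm3 differed by -0.28 (adjusted p = 0.268), again with no overlap. Adra1a, an alpha-1 adrenergic receptor, had the lowest 6 h value of the 39 at -1.14 ± 0.54 (limma adjusted p = 0.32).

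Adra1d, another alpha-1 adrenergic receptor, is named here after its values were seen, because its probe sets disagree. The one that stands for the gene, AF071014mRNA_s_at, read 125, 109 and 121 after kainate and 149.99, 129 and 144 after PBS at 6 h. These groups lie close together without overlap, and the difference was -0.25 ± 0.21 (limma adjusted p = 0.622). The other, M60654_at, read 30.8, 34.9 and 33.0 after kainate and 88.8, 106 and 101 after PBS. Here the kainate arrays were just under the filter level and the PBS arrays far above it. The difference was -1.58 ± 0.23, a 2.99-fold fall (limma adjusted p = 1.91e-05). It was called in all 10 other settings and all 30 fits without 1 array.

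The M60654_at signal of Adra1d also differed among the PBS groups (limma F test, adjusted p = 0.00407). At 1 h it read 98.4, 99.4 and 82.0 after kainate and 75.5, 63.9 and 56.0 after PBS, with kainate higher on every array, though this was not called (0.52 ± 0.23, limma adjusted p = 0.423). At 24 h the groups overlapped, with 72.1, 29.8 and 58.2 against 89.6, 56.0 and 69.8. By 72 h (127.96, 129.9 and 117 against 127, 136 and 135) and 240 h (132, 120.3 and 164 against 121, 123 and 124) the level was high in both groups. The F test found that its kainate effect differed between times (limma adjusted p = 0.000547). AF071014mRNA_s_at gave no such difference (adjusted p = 0.348). The sources used here do not give which transcript each probe set reads.

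**Figure D4:**
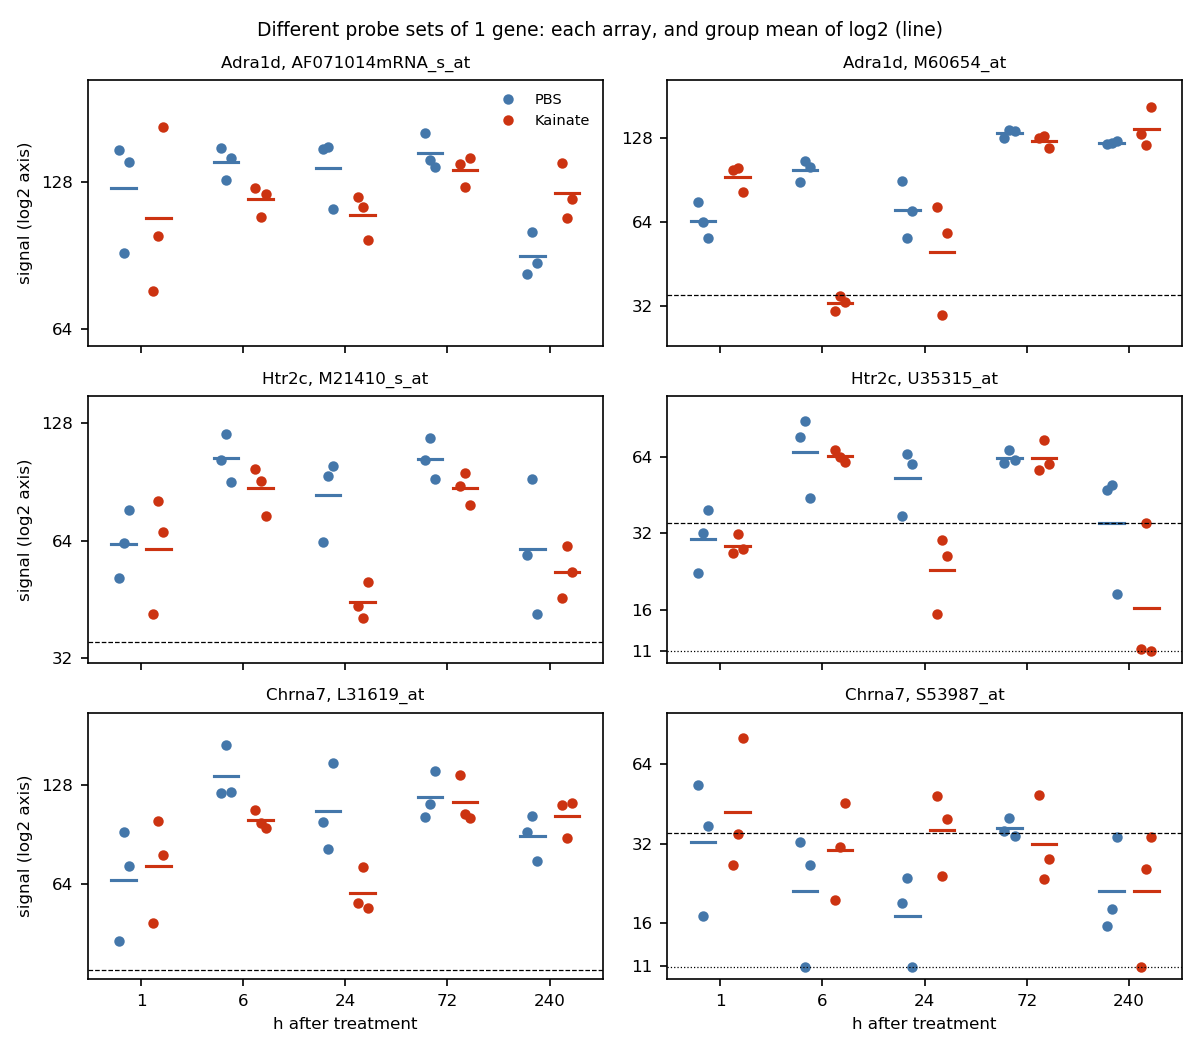
Signal of 2 probe sets each of Adra1d, Htr2c and Chrna7 on every array (points; log2 axis) against hours after treatment; lines are group means of log2, the dashed line is the filter level (35.2) and the dotted line the floor (10.95). M60654_at of Adra1d drops to 30.8 to 34.9 in the 3 kainate arrays of 6 h while AF071014mRNA_s_at does not. Both Htr2c probe sets are lower after kainate at 24 h. For S53987_at of Chrna7 every kainate point of 24 h lies above every PBS point, the reverse of L31619_at.

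Among the Gi/o-coupled receptors, Adra2c rose at 24 h. It encodes an alpha-2 adrenergic receptor that restrains noradrenaline release and neuronal firing. Its kainate arrays read 95.6, 49.3 and 79.6 and its PBS arrays 52.3, 35.2 and 31.2. The lowest kainate array lay under the highest PBS array, so the groups overlap, and 1 PBS array, at 31.2, was under the filter level. The difference was 0.90 ± 0.28, a 1.87-fold rise (limma adjusted p = 0.0355). Means were 74.8 ± 23.5 after kainate and 39.6 ± 11.2 after PBS (SD, n = 3). The differences at 1, 6, 72 and 240 h were 0.33, -0.20, 0.15 and -0.12, and 0 of these 4 was called. Its relatives Adra2a and Adra2b differed by -0.31 ± 0.29 and -0.20 ± 0.26 at 24 h and were not called, and of the 10 tested Gi/o receptors 0 others were called at any time.

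The Gs-coupled receptors had 0 calls among 7 tested. Htr4, a serotonin receptor that raises cyclic AMP, had the highest 24 h value of the 39: 52.2, 30.1 and 30.5 after kainate and 9.18, 21.8 and 7.94 after PBS, with no overlap. The difference was 1.40 ± 0.51 (limma adjusted p = 0.0711), and 2 of its 3 PBS arrays were under the floor. At 72 h the order was turned, with 28.4, 11.8 and 29.96 after kainate and 39.6, 49.3 and 72.4 after PBS (-1.27 ± 0.51, limma adjusted p = 0.63). Htr4 also varied between PBS groups without kainate, with means of 55.4 ± 8.63 at 1 h and 13.0 ± 7.64 at 24 h (SD, n = 3). Its probe set AJ011370_g_at gave 0.58, -0.88 and 1.31 at 24, 72 and 240 h (each ± 0.55) and was not called. At 240 h every kainate array of AJ011370_g_at lay above every PBS array, while the probe set that stands for Htr4 gave -0.05. The remaining probe set, AJ011370_at, was at the floor on all 15 PBS arrays and was not tested. Htr7, another Gs-coupled serotonin receptor, differed by 1.08 ± 0.39 at 24 h (limma adjusted p = 0.0739) and was above the filter level on 3 of 30 arrays. Drd1, a Gs-coupled dopamine receptor, had 0.81 ± 0.36 at 1 h and 0.59 ± 0.36 at 6 h and was not called. Its 1 h PBS arrays read 22.1, 4.84 and 51.7, of which 1 was under the floor and 1 above all kainate arrays (43.0, 40.4 and 39.1). Its other probe sets, M35077_s_at and S46131mRNA_r_at, were each at the floor on 13 of 15 PBS arrays and exceeded the filter level on 0 of 30 arrays, so the 3 probe sets of Drd1 do not give 1 picture either.

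Among the ion channels Chrna7 was called, as 1 of 12 tested subunits. It forms a calcium-permeable nicotinic receptor that is common on hippocampal neurons, interneurons above all. At 24 h the kainate arrays read 56.1, 72.4 and 54.1 and the PBS arrays 98.7, 81.7 and 149, with no overlap. The difference was -0.82 ± 0.27, a 1.76-fold fall (limma adjusted p = 0.0465). The other probe sets of Chrna7 were not called, and L31619_g_at gave -0.27 ± 0.42. S53987_at read 48.3, 24.1 and 39.8 after kainate and 19.0, 23.7 and 8.67 after PBS. Its groups did not overlap either, but in the opposite direction, with a difference of 1.08 ± 0.51 (limma adjusted p = 0.178). Chrna7 was called in 4 of the 11 other settings. With all probe sets of a gene averaged, the 24 h difference of Chrna7 was -0.003 (limma adjusted p = 0.997). The other times gave 0.13, -0.44, -0.05 and 0.21 at 1, 6, 72 and 240 h.

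Of the other nicotinic subunits 0 were called. The 5 other tested neuronal subunits were Chrna2, Chrna3, Chrna4, Chrnb2 and Chrnb4, and the largest differences among them were -1.35 ± 0.45 for Chrna4 at 1 h (limma adjusted p = 0.228) and -1.04 ± 0.49 for Chrna3 at 6 h (limma adjusted p = 0.318). The muscle-type subunit Chrna1 had the highest 240 h value of the 39, 1.69 ± 0.57 (limma adjusted p = 0.256), with 104, 67.4 and 42.5 after kainate and 14.8, 33.0 and 18.2 after PBS. Here the PBS arrays of 240 h were low, while those of 6 h read 71.3, 87.3 and 50.3. Htr3a, the serotonin-gated channel, stayed between -0.35 and 0.22 at all times on the probe set that stands for it, U01227_s_at, and was not called. At 1 and 6 h every kainate array of U01227_s_at lay under every PBS array. These differences were -0.35 ± 0.22 and -0.21 ± 0.22 (limma adjusted p = 0.664 and 0.695). The dimmer tested probe set of Htr3a, U59672_at, was not called either but ranged more widely, from -0.53 at 6 h to 0.71 at 240 h (each ± 0.45). At 240 h every kainate array of U59672_at (26.0 to 40.9) lay above every PBS array (9.87 to 24.8), with a limma adjusted p of 0.541. The remaining probe set, D49395_s_at, was not tested.

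The 3 calls at 24 h rest on few arrays. Without 1 array of the 24 h groups, each of the 3 genes passed in 2 of 6 fits. The count of calls at 24 h was 0 without PBS 24 h replicate 3 and 0 without kainate 24 h replicate 1, and it was 1 without PBS 24 h replicate 2 or kainate 24 h replicate 3. It was also 0 when only the arrays of 1, 24 and 240 h, or only the 6 arrays of 24 h, were fitted. The directions stayed: over the 30 fits without 1 array Adra2c lay between 0.70 and 1.18, Htr2c between -1.12 and -0.80, and Chrna7 between -1.01 and -0.57.

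Most receptor differences were below 0 at 6 and 24 h. The 39 differences of a time share the same PBS and kainate arrays, so counts of signs are a description. At 6 h 33 of 39 differences were below 0 (84.6%, against 63.0% of all tested probe sets), with a median of -0.28, while the median of all tested probe sets was -0.11, and that of the probe sets below the middle level was -0.18. Every kainate array lay under every PBS array for 15 of 39 genes (38.5%), against 18.0% of all tested probe sets. The class medians were alike: -0.28 for Gq (8 of 9 below 0), -0.29 for Gi/o (9 of 10), -0.24 for Gs (4 of 7) and -0.29 for channels (11 of 12). At 24 h 29 of 39 were below 0 (74.4%, against 54.1%), with a median of -0.20 against -0.05 for all and -0.03 for those below the middle level. Full separation downward was not more common at 24 h, with 5 of 39 (12.8%) against 15.6% of all. At that time all 5 muscarinic receptors were below 0, between -0.37 and -0.11, and 0 of them were called. Below 0 were also 9 of 11 nicotinic, 7 of 12 serotonin, 5 of 7 adrenergic, 2 of 3 dopamine and 1 of 1 histamine receptor genes.

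At 1 and 72 h the medians were -0.02 and -0.06, against -0.04 and -0.04 for all. The sign at 1 h turned to 0.04 with quantile normalization. At 240 h 28 of 39 were above 0 (71.8%, against 53.3%), with a median of 0.15 against 0.03 for all and 0.09 for those below the middle level. Every kainate array lay above every PBS array in 6 of 39 (15.4%, background 9.58%). With quantile normalization the 240 h median was 0.06. Here too all 39 differences share the same PBS and kainate arrays.

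Some receptor genes differed among PBS groups that had no kainate, in a share near the background. By the F test 7 of 39 did (17.9%, background 16.9%): Adrb3, Chrna2, Chrna3, Chrna7, Drd5, Htr1a and Htr4. In all 7 the mean of the 6 and 72 h PBS groups lay above that of the 1, 24 and 240 h groups, a split seen in these data and not in the labels. Single groups need not follow it. For Drd5 the PBS mean of log2 was 6.86 at 72 h, under 6.94 at 1 h and 6.91 at 24 h, and it was 6.29 at 240 h. The differences were 0.69, 1.29, 1.58, 0.56, 0.28, 1.19 and 0.53 on the log2 scale in that order and are given without a test. Of all 1065 probe sets that differ among PBS groups, 55.6% were higher at 6 and 72 h.

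Markers of neurons and of microglia were called at 24 h. Of 14 neuron markers 7 fell, Nrgn and Camk2a among them, with a median of -0.50 over the list. Camk2a was dim, at 26.5, 9.62 and 17.4 after kainate and 55.8, 71.5 and 64.9 after PBS. The summed signal of the list was 15015 to 16060 after kainate and 18241 to 19289 after PBS. Of 9 microglia markers 4 rose, with a median of 0.65 and a summed signal over 11 genes of 1954 to 2384 against 1074 to 1226. The background at 24 h is 5.03% higher and 6.30% lower. Of 12 interneuron markers Npy, Tac1 and Penk rose and Pvalb fell at 24 h, and of 10 astrocyte markers 2 rose and 3 fell. Of 9 vessel markers 2 rose and 1 fell, and of 6 oligodendrocyte markers 0 were called. Of 6 tested markers of striatum and other neighbouring regions 2 rose, Penk and Tac1, which are also on the interneuron list. The summed signal of 7 such markers was 816 to 1158 after kainate and 539 to 667 after PBS at 24 h, and 963 to 1245 against 661 to 730 at 6 h. The part of all these markers in the falls of Htr2c and Chrna7 and the rise of Adra2c at 24 h, and in the fall of Htr5b at 6 h, was not tested. At 6 h, where Htr5b fell, 0 of 14 neuron markers were called (median 0.02), and the summed signal was 18218 to 18601 after kainate and 16805 to 18416 after PBS. Of 12 interneuron markers 4 rose at 6 h (Sst, Npy, Tac1 and Penk) and 0 fell, and of 9 microglia markers 2 rose, with a background of 3.24% higher and 0.698% lower.

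The enzymes and carriers of the same transmitters gave few calls. Of 12 tested genes of monoamine synthesis, storage, reuptake and breakdown 0 were called at any time, among them Maoa, which degrades serotonin and noradrenaline (0.13 ± 0.14 at 24 h). Of 5 tested acetylcholine genes 1 fell at 24 h, Colq, the collagen tail that anchors acetylcholinesterase (-0.52 ± 0.17, limma adjusted p = 0.0459). Ache itself differed by -0.13 ± 0.15. The background at 24 h was 5.03% higher and 6.30% lower, and in a list of 5 a single call is already 20%.

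Among genes of G protein, cyclic AMP and phospholipase C signalling the calls were also mostly falls at 24 h. Of 21 tested genes of phospholipase C, protein kinase C and IP3 signalling, 5 fell (23.8%) and 1 rose (4.76%) at 24 h. The background was 6.30% lower and 5.03% higher. The falls were Itpr1, the IP3 receptor (-1.03 ± 0.17, limma adjusted p = 0.000243), Dgkg (-0.99), Itpka (-0.87), Dgkz (-0.74) and Plcg1 (-0.65), and the rise was Plcd1 (1.41 ± 0.43). Of 16 cyclic AMP genes 2 (12.5%) fell at 24 h. Adcy5, an adenylyl cyclase, was one (-0.96 ± 0.17, limma adjusted p = 0.000496), and Adcy3 the other (-0.64). Pde4b, a phosphodiesterase that degrades cyclic AMP, rose at 6 h (1.29 ± 0.18, limma adjusted p = 1.31e-05). That is 1 of 16 (6.25%), and the background at 6 h was 3.24% higher. Among 17 G protein subunits Gng5 rose (1.17) and Gnao1, Gng7 and Gng10 (17.6%) fell at 24 h. Rgs4, which shortens Gi/o and Gq signals, rose at 6 h (1.09 ± 0.22, limma adjusted p = 0.00201), and Rgs8 fell at 24 h (-0.75), each 1 of 12 receptor kinase, arrestin and RGS genes (8.33%). The list of nicotinic and serotonin-gated channel partners had 1 tested gene and 0 calls.

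Other G protein-coupled receptors of the hippocampus gave similar counts. Of 41 tested 0 were called at 6 h and 3 (7.32%, near the 6.30% of all) fell at 24 h: the cannabinoid receptor Cnr1 (-0.77 ± 0.17), the cholecystokinin receptor Cckbr (-1.10 ± 0.25) and the neurotensin receptor Ntsr2 (-0.68 ± 0.12). Their medians were -0.26 at 6 h and -0.26 at 24 h, beside -0.28 and -0.20 for the monoamine and acetylcholine receptors.

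The genes whose 10 group means followed a called receptor most closely, by Pearson correlation over tested genes, were as follows. For Htr5b they were Urod (r = 0.93), Ylpm1 (0.93) and Gpr161 (0.91). For Htr2c they were Nup153 (0.96), Cntn1 (0.95) and Serpina1 (0.94), and for Chrna7 Mcpt1l1 (0.97), Prdm2 (0.97) and H2bc1 (0.95). For Adra2c they were Nudt6 (0.95), Cdc123 (0.94) and Atp6v1f (0.94). The points share the 30 arrays and the split by time described above, and they are the best of 3702 genes, so the values are a description.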

How the data were processed

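The values deposited by the authors are linear signal intensities, 1 for each probe set on each array; the sources used here do not say how they were made from the scans. The number of arrays limits the precision. Groups follow the labels, with 3 arrays in each of 10 groups.

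Of 8740 probe sets that are not array controls (59 are), 7006 had 1 gene in the platform annotation, 308 had several and 1426 had none. All 48 receptor genes matched a current gene identifier. Each array was scaled to the common mean trimmed by 2% at each end, values were floored at 10.95 and turned into log2, and probe sets above 35.2 on at least 3 of 30 arrays were tested. limma 3.58.1 in R 4.3.3 fitted the 10 group means on all 30 arrays, with empirical Bayes moderation with an intensity trend, 20 residual and 7.26 prior degrees of freedom, and Benjamini-Hochberg adjustment over 6303 probe sets at a threshold of 0.05. The procedure was run on simulated data, with changes planted in independent normal noise and no floor. The only requirement set was on the sign of the planted changes, so error rates for dim, floored signals were not checked. Figures used Python 3.11.15, pandas 2.3.3 and matplotlib 3.10.9.

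Named receptor genes are those that passed a contrast or an F test, filled up to 6 by the smallest adjusted p of the F test for an effect at any time (Htr4 and Chrm3), plus the 3 genes most like each gene that passed and, from each list, up to 2 passing genes for each direction and time. Other receptor genes, Adra1d among them, and further list genes were named after their values were seen, as examples of their class. Replicate numbers of kainate and PBS arrays do not pair them. The receptor genes, gene lists, markers and tests were chosen with earlier results of these data known. Alternatives were another normalization, floor, filter, probe set rule, variance model and array weights, a replicate block, fits of fewer arrays and leaving out each array.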

Additional observations from a re-analysis of the deposited data

Results flagged for a closer look

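The kainate effect on Adra1d, as read by the probe set M60654_at, differed between times by the test of the difference itself. The effect at 6 h minus that at 1 h was -2.10 ± 0.32 on the log2 scale (limma adjusted p = 0.000382), and the effect at 24 h minus that at 6 h was 1.08 ± 0.32 (limma adjusted p = 0.0470). The F test over all times gave a limma adjusted p of 0.000547. Each effect is taken against the PBS group of its own time. The other probe set of the gene, which has the higher mean signal, gave an adjusted p of 0.348 by the same F test.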

How the results depend on the processing

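The call of Htr5b at 6 h held under every alternative that was run. Receptor genes called at 6 h numbered 2 with a gene's probe sets averaged (Adra1d joined), 3 with array weights (Chrnd and Htr1b joined), 4 with only the arrays of 6 and 72 h and 2 with only the 6 arrays of 6 h. At 24 h the count was 0 with only the arrays of 1, 24 and 240 h and 0 with only its 6 arrays, and 0 to 4 without 1 array. At 72 h it was 1 with array weights (Htr5b), a setting that called 153 of all tested probe sets at 72 h, against 3 in the main fit. At 1 h it was 0 to 1 without 1 array, Drd1 being called without PBS 1 h replicate 3. The same array moved the counts of the any-time F test and the mean effect, each 1 to 2 without 1 array. The any-time F test called 2 genes with probe sets averaged and 2 with array weights, and a difference between times was called for 1 in each. Genes that differ among PBS groups numbered 4 with no filter, 16 with array weights and 4 to 10 without 1 array (4 without PBS 72 h replicate 3). For the F tests and the mean effect the shares of all tested probe sets under these settings are not given here. Those counts therefore describe the settings and are not a result about the receptors. The causes were not tested.

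Over all tested probe sets the count of calls at 24 h was 714, and 343 with only the arrays of 1, 24 and 240 h and 256 with only its 6 arrays. At 6 h it was 248, and 633 with array weights and 481 with only the arrays of 6 and 72 h. The fit with a replicate block called 0, 1, 3, 0 and 0 receptor genes at 1, 6, 24, 72 and 240 h, and the numbers were not found to pair the arrays: 3 of 15 pairs correlated above 0.1, and 10 of 30 arrays correlated best with their own number.

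Differences near 0 that were not called changed sign in places. With quantile normalization Htr5b (0.0157), Htr2c (0.0275) and the median of the receptor genes (0.0396) did so at 1 h, U35315_at of Htr2c at 6 h (0.0327) and Chrna7 at 72 h (0.0038). With array weights Htr2c did at 1 h (0.0116), U35315_at at 6 h (0.15) and 72 h (-0.0157), Chrna7 at 72 h (0.0162) and Htr4 at 240 h (0.15). With probe sets averaged Chrna7 did at 1 h (-0.0593) and 240 h (-0.0792), Adra1d at 1 h (0.16), Chrm3 at 72 h (0.0845) and 240 h (0.14) and Htr4 at 240 h (0.44). Without 1 array the ranges at 1 h were -0.11 to 0.0432 for the median, -0.11 to 0.085 for Htr5b, -0.18 to 0.42 for Chrna7, -0.25 to 0.23 for Htr2c, -0.52 to 0.0432 for Adra1d and -0.32 to 0.0954 for U35315_at. At 6 h they were -0.43 to 0.84 for Htr4 and -0.36 to 0.15 for U35315_at. At 72 h they were -0.0227 to 0.29 for Adra2c, -0.19 to 0.0829 for Chrna7, -0.19 to 0.0588 for Chrm3 and -0.12 to 0.0817 for U35315_at. At 240 h they were -0.43 to 0.0103 for Htr5b, -0.37 to 0.0907 for Adra2c, -0.47 to 0.11 for Htr2c, -0.47 to 0.22 for Htr4 and -0.0585 to 0.0029 for Chrm3.

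The settings for the mean effect, the PBS groups, the median, Adra1d and U35315_at, and leaving out arrays for single genes, were added after seeing the data. Signals near the floor limit the rest: 9 of 48 genes could not be tested, and with a median standard error of 0.33 a change of less than 1 on the log2 scale was often not detectable.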
